A study of Mus musculus with 6 samples.

Results

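Neuronal microtubule-associated proteins were followed in the olfactory epithelium of newborn mice. The 7 genes were chosen by name, with earlier results of these data known: Map1a, Map1b, Map2, Mapt, Map4, Dcx and Dclk1. All probe sets that the platform annotation gives to exactly 1 of these genes were taken, which made 31 of 34945 single-gene probe sets, or 7 of 18193 genes. RNA came from 3 mutant and 3 wildtype pups aged 1 day, with 1 array per pup. All 6 pups had a mixed C57Black6/J and 129SvJ background. The labels call the first group only mutant, and the title of the series asks for targets of KLF7, a zinc finger transcription factor of neurons; the allele is not given there.

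Microtubule-associated proteins bind along microtubules, the stiff tracks inside axons and dendrites, and set how stable, bundled and accessible these are. Map1a and Map1b are large precursors cut into a heavy and a light chain, with Map1b prominent in growing axons and Map1a in mature neurons. Map2 (dendrites), Mapt (tau, axons) and Map4 (most cell types) share a carboxy-terminal block of repeats that contacts the microtubule. Dcx (doublecortin) and Dclk1 (doublecortin-like kinase) carry paired doublecortin domains, and Dcx marks young, migrating neurons. The olfactory epithelium makes sensory neurons throughout life, so young and mature neurons lie side by side in it.

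KLF factors bind GC-rich letters and CACCC boxes, so the promoters of Map2, rich in G and C, and of Dcx, poor in them, are shown. Both are RefSeq sequences of GRCm38.p6, from 250 bases before to 50 after the transcription start, written 5′ to 3′ along the gene. Capitals mark matches, on either strand, to the CACCC box, to the GC box letters CCGCCC, or to the looser pattern CCNCNCCC, where N is any base. The looser pattern can overlap the others and itself, and overlapping matches are counted separately.
Map2: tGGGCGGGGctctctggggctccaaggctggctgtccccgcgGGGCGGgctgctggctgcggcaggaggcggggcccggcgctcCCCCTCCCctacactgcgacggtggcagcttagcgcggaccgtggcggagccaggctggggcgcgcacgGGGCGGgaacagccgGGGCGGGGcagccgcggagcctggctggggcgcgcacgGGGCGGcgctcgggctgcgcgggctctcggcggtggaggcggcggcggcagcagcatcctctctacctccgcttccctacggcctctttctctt
Dcx: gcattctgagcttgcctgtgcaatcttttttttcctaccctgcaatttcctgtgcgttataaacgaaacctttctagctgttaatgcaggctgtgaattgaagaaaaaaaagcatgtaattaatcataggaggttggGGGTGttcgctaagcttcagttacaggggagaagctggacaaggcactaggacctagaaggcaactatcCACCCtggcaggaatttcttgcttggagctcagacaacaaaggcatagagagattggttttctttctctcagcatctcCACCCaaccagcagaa
The Map2 promoter (chr1:66175079-66175378, plus strand) was 77.7% G or C and held 0 matches to CACCC, 5 to CCGCCC and 3 to CCNCNCCC. The Dcx promoter (chrX:143933075-143933374, minus strand), which overlaps a second Dcx entry, was 44.7% G or C and held 3 matches to CACCC and 0 to either other pattern. The second Dcx entry held 1 match to CACCC and 0 to the others. Over 32851 promoters of the same length the median was 52.7% G or C. CACCC was found in 57.5% of them, CCGCCC in 35.7% and CCNCNCCC in 49.5%. Of the 7 members, 6 had 9 promoters in the table. Map1a, Map1b and the first of the 2 Map4 promoters held 1 CACCC match each, with 4, 2 and 3 matches to CCGCCC and 3, 3 and 1 to CCNCNCCC. The second Map4 promoter held 2 matches to CACCC and 0 to either other pattern. The first Dclk1 promoter held 3 matches to CACCC, 0 to CCGCCC and 1 to CCNCNCCC. The second Dclk1 promoter held 0 matches to CACCC and to CCGCCC and 12 to CCNCNCCC, the most of the 9 promoters. Those 12 are overlapping windows of the same unbroken run of C, not separate sites. A match is a run of letters, not a binding site. Mapt had no entry.

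Each deposited value is 1 intensity per probe set and array. Arrays were quantile normalized, values were raised to a floor at their 20th percentile (3.65 on the log2 scale) and log2 was taken; every level below is on that scale. Array medians before normalization ran from 38.79 to 61.59 in mutant pups and from 38.21 to 52.81 in wildtype pups. The arrays numbered 3 stood apart on the first principal component, at 72.3 in the mutant and 129.4 in the wildtype pup, against -55.3 to -44.8 for the other 4. All 4 probe sets of Klf7, the gene named in the title, were lower in the mutant, by -3.06 to -2.15 on the log2 scale. Their groups did not overlap, as for 1.71% of all probe sets tested in that direction. In limma their unadjusted p ran from 1.3e-04 to 0.015, and adjusted p was 0.999995 for each. A probe set that missed the adjusted threshold is therefore not shown to be unchanged. The number of arrays limits the precision of every difference below. The main fit also left the replicate number out. In it 0.501% of all probe sets tested had a limma unadjusted p under 0.05, fewer than that cut lets through when nothing differs. Its p-values and intervals are therefore not well calibrated.

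Of the 31 member probe sets, 19 passed a filter on dim probe sets, which kept those with a mean over all 6 arrays above the 40th percentile of single-gene probe sets, 5.19. The other 12 had mean levels between 3.65 and 4.93, and are given with their own genes. In limma across 20967 probe sets, 0 of the 19 passed an adjusted p of 0.05, as did 0% of all probe sets; at an unadjusted p under 0.05 there was 1, Map2 1434194_at, against 0.501% of all. Adjusted p was 1 for each of the 19. Among them 18 were lower in the mutant than in wildtype pups and 1, a Dclk1 probe set, was higher. The median log2 difference, mutant minus wildtype, was -0.38 over the 19 and -0.02 over all probe sets tested, of which 53.1% were lower. Groups did not overlap for 3 of the 19, all lower in the mutant, against 1.71% of all probe sets in that direction. Those 3 were Map2 1434194_at, Mapt 1455028_at and Dcx 1418139_at. Of all 31 probe sets, 25 had a lower mean in the mutant. Because the members were chosen with earlier results known, their shares beside those of all probe sets describe them and are no test.

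**Figure D1:**
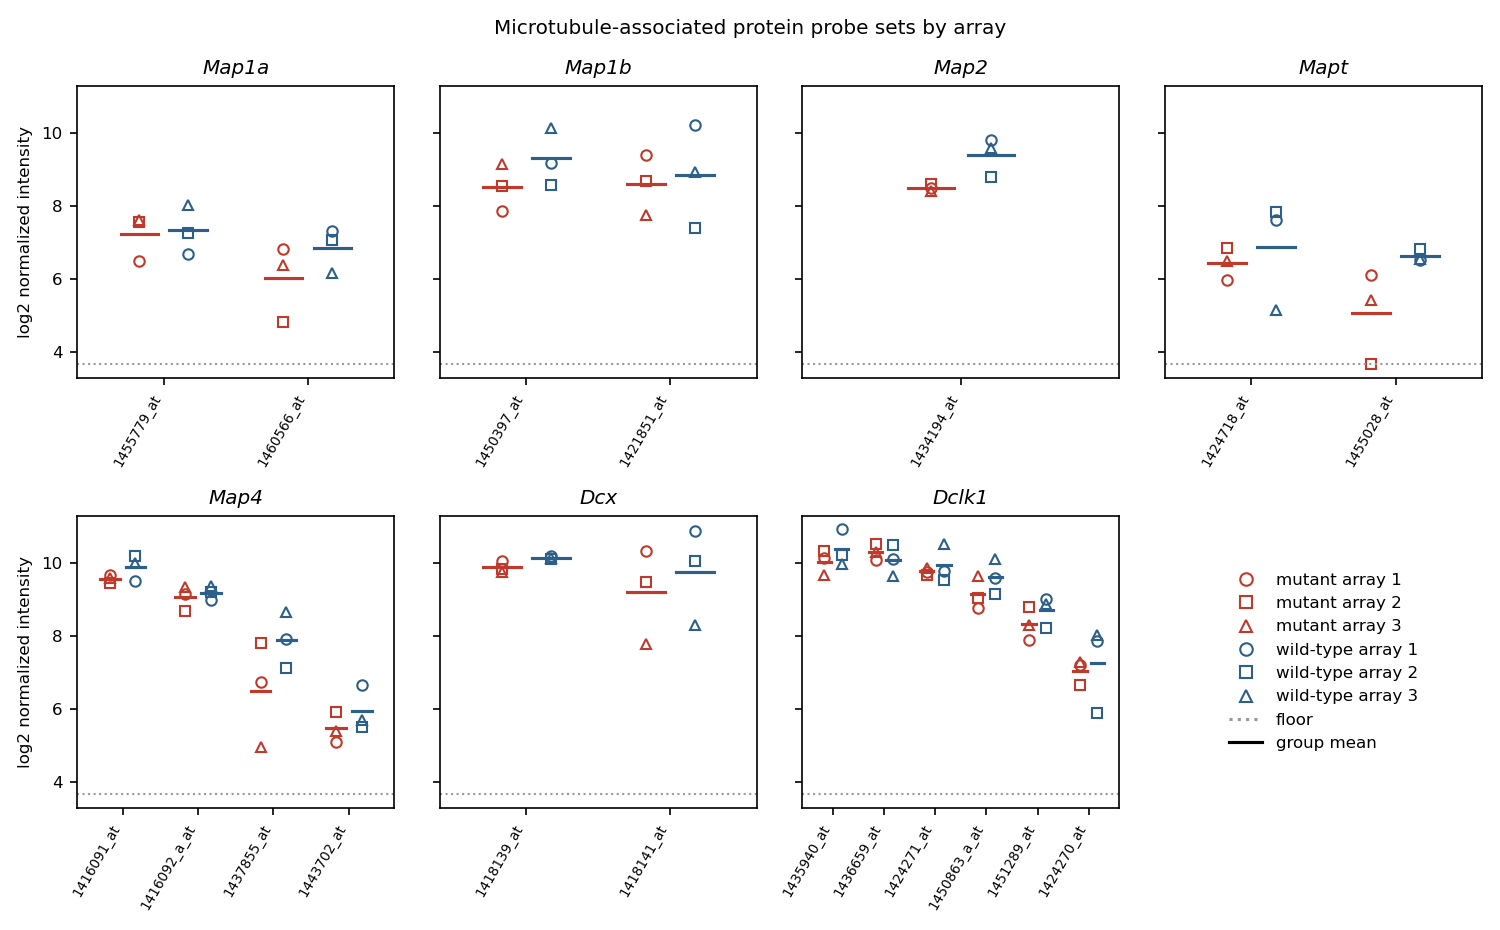
Levels of the 19 member probe sets tested, as log2 normalized intensity on each array (vertical axis), with mutant pups in red left of wildtype pups in blue, 1 symbol per array number, a line at each group mean and the floor dotted at 3.65. Groups are apart for Map2 1434194_at, Mapt 1455028_at and Dcx 1418139_at, and the other 16 overlap.

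Within the wildtype group the pups differed from each other. Wildtype array 1 held the highest value of 8 of the 19 probe sets and wildtype array 3 of 7. Wildtype array 2 held the highest of 3 and the lowest of 3. Its median deviation from the 6-array means was -0.002, against 0.68 for wildtype array 1 and 0.26 for wildtype array 3. The mutant arrays 1, 2 and 3 had median deviations of -0.10, -0.17 and -0.17. Without wildtype array 1, 15 of the 19 were lower and the median difference was -0.22; without wildtype array 2 it was -0.62. Without both arrays numbered 3, 14 of the 19 were lower and the median was -0.29.

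Arrays of the 2 groups that shared a number were also set against each other. Over the 19 probe sets the median of mutant minus wildtype was -0.67 for number 1, -0.02 for number 2 and -0.47 for number 3. Over all probe sets tested those medians were 0.01, -0.10 and -0.02. In all 3 pairs 6 of the 19 were lower in the mutant, against 9.76% of all probe sets: Map2 1434194_at, Map1b 1450397_at, Mapt 1455028_at, both Dcx probe sets and Dclk1 1450863_a_at. The 19 probe sets belong to 7 genes, some share a source sequence, and all were read on the same arrays. They are therefore not independent of each other.

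**Figure D2:**
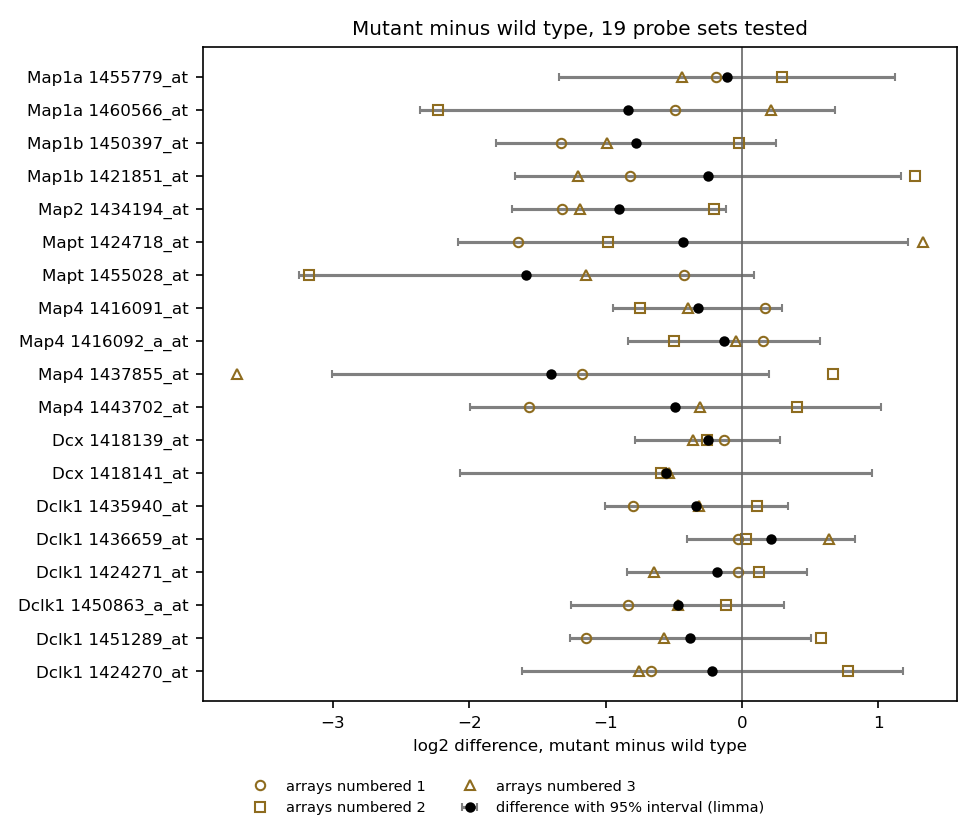
Log2 difference, mutant minus wildtype (horizontal axis), for the 19 probe sets tested (rows): black points with 95% intervals from limma, and open symbols for the 3 same-numbered pairs of arrays. Only the interval of Map2 1434194_at, -1.69 to -0.12, lies wholly below 0.

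Map2, the dendritic member, had 4 probe sets, which did not order the groups alike. Probe set 1434194_at had levels of 8.50, 8.60 and 8.41 on mutant arrays 1, 2 and 3, against 9.81, 8.80 and 9.59 on wildtype arrays 1, 2 and 3. The mutant pups lay close together and below every wildtype pup, and wildtype array 2 came nearest to them. The mean was 8.50 ± 0.10 in mutant and 9.40 ± 0.53 in wildtype pups (SD, n = 3 each), a difference of -0.90 (SE 0.36), or 1.87-fold lower. It missed the threshold (limma, adjusted p = 1; unadjusted 0.028), and the exact two-sided permutation p was 0.1, the smallest that 3 arrays against 3 allow. The difference was -0.69 without wildtype array 1, -1.21 without wildtype array 2 and -0.77 without both arrays numbered 3.

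The other 3 Map2 probe sets were too dim to test, with 6 of their 18 values at the floor. Probe set 1440699_at had levels of 5.53, 5.51 and 4.63 in mutant pups and 3.65, 4.80 and 4.92 in wildtype pups, which overlapped. Probe set 1421327_at had 4.44, 3.81 and 4.64 in mutant pups and 3.65, 3.71 and 3.65 in wildtype pups. Here every mutant pup lay above every wildtype pup, the opposite order to 1434194_at, but 2 wildtype values were at the floor and the other just above it. Fitted without the dim filter, its difference of 0.63 had a limma adjusted p of 1 (unadjusted 0.034). Probe set 1421328_at had 5.76, 3.65 and 3.65 in mutant pups and 5.59, 4.14 and 3.65 in wildtype pups, with array 1 highest in both groups. The annotation gives 1421327_at and 1421328_at the same source sequence.

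This disagreement was known when Map2 was chosen and rests on values near the floor, where differences are compressed. No test between the probe sets is therefore used as support, and the p-values above concern single probe sets. The sources used here do not say where in the Map2 transcripts each probe set lies. Map2 is on chromosome 1 within 10 Mb of Klf7, the only member on that chromosome.

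**Figure D3:**
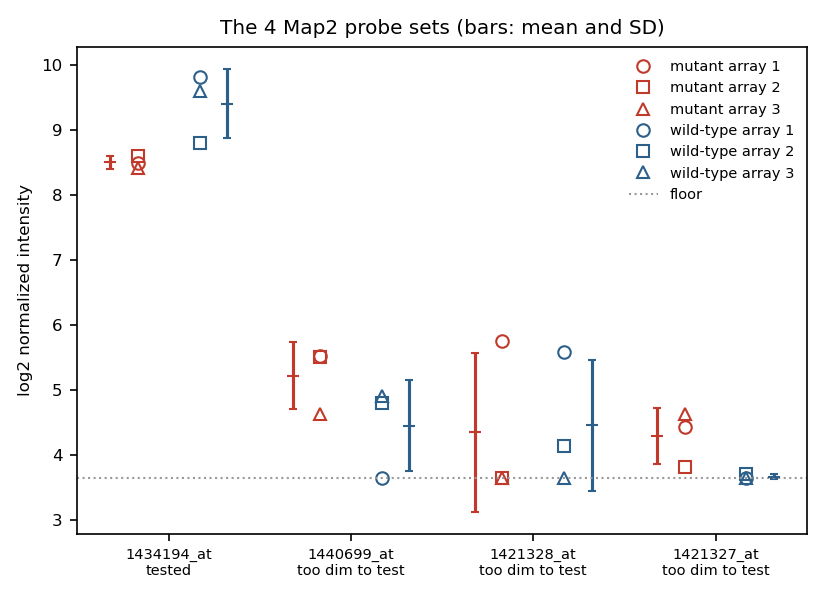
Log2 normalized intensity (vertical axis) of the 4 Map2 probe sets by array, mutant pups in red left of wildtype pups in blue, with bars for mean and SD and the floor dotted at 3.65. The groups part downwards at 1434194_at and upwards at 1421327_at, where wildtype values sit on or beside the floor.

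Mapt encodes tau, the axonal relative of Map2, and 2 of its 4 probe sets were bright enough to test. Probe set 1455028_at had levels of 6.10, 3.65 and 5.40 in mutant pups and 6.52, 6.83 and 6.55 in wildtype pups. The wildtype values were tight, the mutant values were spread, and mutant array 2 was at the floor, so the difference is understated. The means were 5.05 ± 1.26 in mutant and 6.63 ± 0.17 in wildtype pups (SD, n = 3 each), a difference of -1.58 (SE 0.76) and an interval of -3.25 to 0.09. It was -0.87 without mutant array 2 and -1.84 without both arrays numbered 3. The exact permutation p was 0.1.

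Probe set 1424718_at of Mapt ordered the pups differently. Its levels were 5.98, 6.85 and 6.49 in mutant pups and 7.62, 7.83 and 5.16 in wildtype pups, so wildtype array 3 was the lowest of all 6. The difference of -0.43 (SE 0.75) was 0.055 without wildtype array 2 and -1.33 without wildtype array 3. Across the 6 arrays the 2 probe sets of Mapt correlated at 0.04. Probe sets 1424719_a_at and 1417885_at were dim in both groups and differed by -0.38 and 0.27, with 2 and 3 of 6 arrays at the floor.

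Map4, the member found in most cell types, had small differences on probe sets 1416091_at and 1416092_a_at. The first had 9.68, 9.44 and 9.60 in mutant pups and 9.51, 10.19 and 9.99 in wildtype pups, a difference of -0.32 (SE 0.28). The second had 9.14, 8.69 and 9.34 in mutant pups and 8.99, 9.19 and 9.38 in wildtype pups, a difference of -0.13 (SE 0.32). Both overlapped, and both were higher in the mutant for arrays numbered 1. On these probe sets the intervals were -0.94 to 0.30 and -0.84 to 0.58.

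The Map4 probe sets 1437855_at and 1443702_at spread more from pup to pup. Levels of 1437855_at were 6.75, 7.80 and 4.94 in mutant pups and 7.92, 7.12 and 8.64 in wildtype pups. The difference was -1.40 (SE 0.73). It was -3.70 between the arrays numbered 3 and -0.26 without both of them. Probe set 1443702_at had 5.10, 5.92 and 5.38 in mutant pups and 6.66, 5.51 and 5.68 in wildtype pups, a difference of -0.49 (SE 0.69). Another, 1439467_at, was too dim to test, ran from 3.65 to 6.78 in mutant pups and from 3.65 to 5.07 in wildtype pups, and differed by 0.89.

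Map1b, abundant in extending axons, had 3 probe sets that the annotation derives from the same source sequence. Probe set 1450397_at had 7.85, 8.55 and 9.16 in mutant pups and 9.18, 8.58 and 10.15 in wildtype pups. Each mutant array lay below the wildtype array of its number, by -1.33, -0.02 and -0.99, although the groups overlapped. The difference was -0.78 (SE 0.47), -0.36 without wildtype array 3 and -1.14 without wildtype array 2. Probe set 1421851_at had 9.39, 8.67 and 7.74 in mutant pups and 10.21, 7.40 and 8.94 in wildtype pups, a difference of -0.25 (SE 0.65) that became 0.42 without wildtype array 1. Despite the shared source, these probe sets correlated at 0.04 over the 6 arrays. The dim 1421850_at differed by -0.43.

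Map1a, the MAP1 protein of mature neurons, also had probe sets that ordered the pups differently. Probe set 1460566_at had 6.82, 4.83 and 6.39 in mutant pups and 7.31, 7.06 and 6.17 in wildtype pups. Mutant array 2 was the lowest of the 6, and the difference of -0.84 (SE 0.69) was -0.25 without it. Probe set 1455779_at had 6.48, 7.57 and 7.60 in mutant pups and 6.67, 7.27 and 8.03 in wildtype pups, a difference of -0.11 (SE 0.56). It became 0.25 without wildtype array 3. The correlation between both probe sets over the 6 arrays was -0.58.

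Dcx, the marker of young neurons, showed small differences that recurred by array number. Probe set 1418139_at had 10.05, 9.84 and 9.76 in mutant pups and 10.18, 10.10 and 10.12 in wildtype pups. All mutant pups lay below all wildtype pups, by a narrow margin: the means were 9.89 ± 0.15 in mutant and 10.14 ± 0.04 in wildtype pups (SD, n = 3 each), a difference of -0.25 (SE 0.24), or 1.19-fold lower. The groups overlapped when array medians were set equal or when arrays were not normalized. The exact permutation p was 0.1.

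On probe set 1418141_at of Dcx the pups of each group lay far apart. Levels were 10.33, 9.47 and 7.77 in mutant pups and 10.88, 10.06 and 8.30 in wildtype pups, with array 1 highest and array 3 lowest in both groups. Within the pairs of numbers 1, 2 and 3 the differences were -0.55, -0.59 and -0.53. The difference of -0.56 had an SE of 0.69 without and 0.28 with the replicate number as a block, and in neither fit did it pass (limma, adjusted p = 1). The remaining Dcx probe sets were dim. Of these, 1418140_at differed by -0.28 and 1448974_at was at the floor on all 6 arrays.

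Dclk1, which joins doublecortin domains to a kinase domain, had the most probe sets, 9. Probe set 1435940_at had 10.13, 10.32 and 9.66 in mutant pups and 10.92, 10.21 and 9.97 in wildtype pups, a difference of -0.33 (SE 0.31). Probe set 1436659_at was the only one of the 19 tested that was higher in the mutant, with 10.07, 10.52 and 10.29 in mutant pups and 10.10, 10.49 and 9.65 in wildtype pups. Its difference of 0.21 (SE 0.28) was -0.00045 without wildtype array 3. Probe set 1450863_a_at had 8.76, 9.04 and 9.65 in mutant pups and 9.59, 9.15 and 10.11 in wildtype pups, a difference of -0.47 (SE 0.36).

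A further 3 Dclk1 probe sets share a source sequence in the annotation. Of these, 1424271_at differed by -0.18 (SE 0.30), 1451289_at by -0.38 (SE 0.40) and 1424270_at by -0.22 (SE 0.64). All 3 were higher in the mutant for arrays numbered 2 and lower for numbers 1 and 3. Over the 6 arrays 1436659_at ran against 1424271_at and 1424270_at, with correlations of -0.89 and -0.84, while 1424271_at and 1450863_a_at correlated at 0.80. The dim probe sets 1446190_at, 1451917_a_at and 1423125_at differed by -0.03, -0.48 and -0.61.

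**Figure D4:**
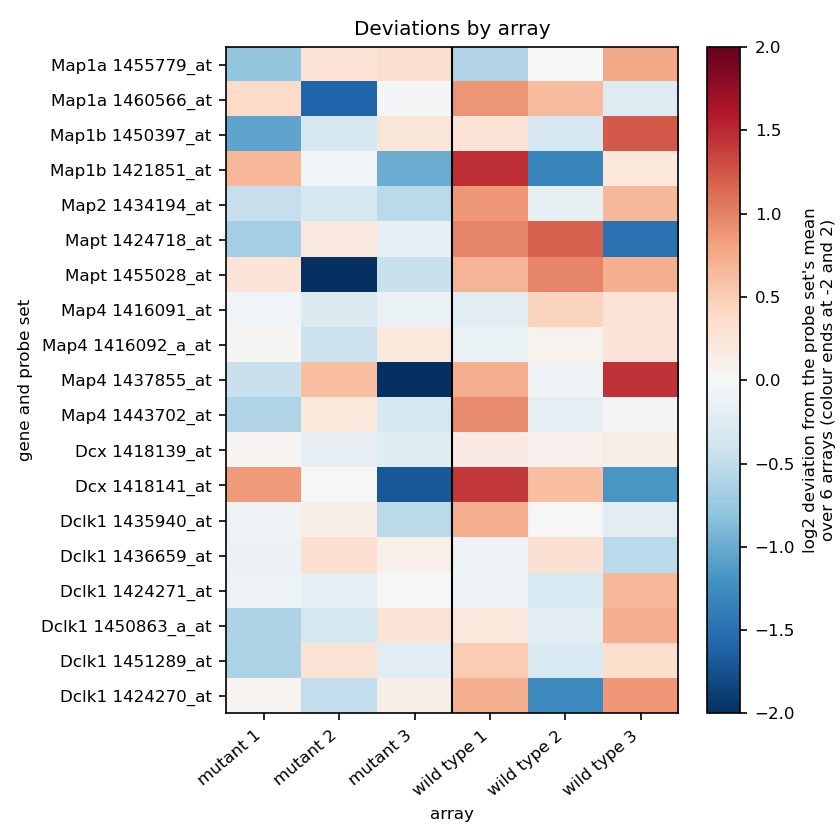
Deviation of each tested member probe set (rows) from its own mean over the 6 arrays (columns, mutant left of wildtype), in log2 units, with the colour scale ending at -2 and 2. Wildtype array 1 is above the row mean in 14 of 19 rows and each mutant array is below it in 11 or 12.

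Taking for each gene the probe set with the highest mean, all 7 members were lower in the mutant, with a median difference of -0.33 and a range of -0.90 to -0.11. Across the 6 arrays these 7 probe sets did not follow each other closely. Map2 correlated with Dcx at 0.75, with Map1b at 0.66 and with Dclk1 at 0.60, but with Mapt at 0.01 and with Map1a at 0.03. Map1a ran with Map1b at 0.69 and against Dclk1 at -0.55. These correlations describe 6 arrays that share group, array number and processing. Among 12702 other genes, those most like Map2 1434194_at over the 6 arrays were Cacybp, Zfyve16 and Elovl4, each at a correlation of 0.99. Tbcb, Nxnl2 and Kif4 were most like Dcx 1418139_at, at 0.99, 0.98 and 0.98. For Map1b 1450397_at these were Wrnip1, Tmem237 and Amigo1, at 0.99, 0.99 and 0.98. Each of the 7 probe sets had a closest gene at 0.98 or above, and Map1a 1455779_at had 9 genes above 0.99. The highest of 12702 correlations over 6 arrays is high by selection, so the named genes are a description only.

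A broad list of other microtubule-associated proteins was read from the same fit, with 1 probe set per gene. Of 37 listed genes, 35 were tested; 23 were lower and 12 higher in the mutant, with a median of -0.18 against -0.02 over 12703 genes, of which 52.6% were lower. None passed (limma, adjusted p under 0.05, as for 0% of all genes), and 1 of 35 had an unadjusted p under 0.05, against 0.606% of all. That gene was Dcdc2a, a doublecortin-domain protein of cilia, with means of 8.60 ± 0.61 in mutant and 9.68 ± 0.25 in wildtype pups (SD, n = 3 each), a difference of -1.08 (SE 0.37). Dclk3, a kinase related to Dclk1, differed by -1.25 (SE 0.63). Both had groups that did not overlap, as did 1.95% of all genes in that direction. Gas2l1, which links actin and microtubules, and Clasp2, which stabilizes plus ends, differed by -0.43 (SE 0.38) and -0.19 (SE 0.21).

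Enzymes that act on these proteins were mixed. Of 25 kinases and phosphatase subunits, 23 were tested, with 15 lower, 8 higher, a median of -0.13 and 2 at an unadjusted p under 0.05. Over all genes tested 52.6% were lower, 0.606% had an unadjusted p under 0.05, and 1.95% were lower without overlap. Ppp2r2c, a regulatory subunit of the phosphatase PP2A, had means of 8.27 ± 1.09 in mutant and 9.79 ± 0.84 in wildtype pups (SD, n = 3 each), which overlapped and differed by -1.52 (SE 0.56). Cdk5r2, a neuronal activator of the tau kinase Cdk5, had means of 9.23 ± 0.31 in mutant and 9.99 ± 0.18 in wildtype pups, a difference of -0.77 (SE 0.29) without overlap. The tau kinase Gsk3b and the JNK family kinase Mapk10 differed by 0.28 (SE 0.20) and -0.35 (SE 0.35). All missed the threshold (limma, adjusted p = 1). Of 6 microtubule-severing genes tested, 2 were lower and 4 higher, with a median of 0.02. Among these, Fignl1 differed by -0.72 (SE 0.61) without overlap. With overlap, Katnal1 differed by 1.02 (SE 0.94), Spast (spastin) by -0.19 (SE 0.39) and Katnal2 by 0.23 (SE 0.64).

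Cell type markers on the same arrays were summed as normalized intensity, since in a whole tissue fewer cells of a type and less RNA per cell cannot be told apart. Mature sensory neuron markers, 11 of 13 on the array, summed to 4114 to 5030 in mutant and 6646 to 8528 in wildtype pups, with no overlap. Of the 11, 9 had a lower mean in the mutant, 5 of them without overlap, and 2, Cngb1 and Adcy3, a higher mean. Over all genes tested 52.6% were lower, and 1.95% were lower without overlap. Immature neuron markers, 13 of 13, summed to 21053 to 22793 in mutant and 21391 to 26339 in wildtype pups. Bright genes weigh most in such a sum. By gene, 11 of the 13 had a lower mean in the mutant, 3 of them without overlap, and 2 a higher mean. Neuronal progenitor markers, 6 of 7, summed to 5315 to 6908 in mutant and 5715 to 7359 in wildtype pups. General neuronal markers, 7 of 7, summed to 3331 to 3875 in mutant and 3776 to 5598 in wildtype pups, and of these Rbfox3, Nefl and Nefm were too dim to test. Wildtype array 1 was the highest of the 6 in all 4 lists, as it was for 8 member probe sets. It was also the highest for the sustentacular and gland markers (12550) and the ensheathing and Schwann glia markers (2437) given below. The part of the neuronal markers in the member differences was not tested.

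Markers of other tissue that can carry these proteins are given beside these. Central neuron markers, 12 of 12, summed to 620 to 755 in mutant and 536 to 752 in wildtype pups. Of these, 7 were too dim to test, among them Gad1, Slc17a7, Tbr1, Eomes and Neurod6. The 5 tested were Camk2a, Neurod2, Gad2, Slc32a1 and Dlx2, at mean levels of 7.12, 6.77, 6.45, 5.47 and 5.31. By gene, 2 of the 5 were lower and 3 higher in the mutant. Muscle markers, 8 of 8, summed to 220 to 296 in mutant and 156 to 685 in wildtype pups, with 7 too dim. Vomeronasal markers, 6 of 6, summed to 2075 to 3877 in mutant and 1570 to 4047 in wildtype pups, highest on the arrays numbered 3. The brightest were Meis2 and Gnai2, at mean levels of 10.10 and 9.69. Trpc2, Vmn1r51 and Vmn2r1 were at 5.20, 5.57 and 6.36, where the dim level is 5.19, so the sum says little about vomeronasal tissue. Sustentacular and gland markers, 8 of 9, summed to 9439 to 11995 in mutant and 7277 to 12550 in wildtype pups, and horizontal basal cell markers, 6 of 6, to 3309 to 6257 in mutant and 1757 to 5781 in wildtype pups. By gene, 1 was lower and 6 higher in the first list, and 1 lower and 5 higher in the second. Squamous epithelium markers, 8 of 8, summed to 139 to 2169 in mutant and 294 to 5104 in wildtype pups; the 5104 was wildtype array 2, against 359 and 294 on wildtype arrays 1 and 3. Respiratory ciliated cell markers, 6 of 6, summed to 2371 to 3769 in mutant and 2021 to 2587 in wildtype pups, and each of the 5 tested had a higher mean in the mutant. Olfactory ensheathing and Schwann glia markers, 5 of 7, summed to 1990 to 2262 in mutant and 1665 to 2437 in wildtype pups. The part of these tissues in the member differences was not tested. The supporting cell markers Cyp2g1 and Sec14l3 and the neuronal marker Omp were above the dim level in this tissue.

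**Figure D5:**
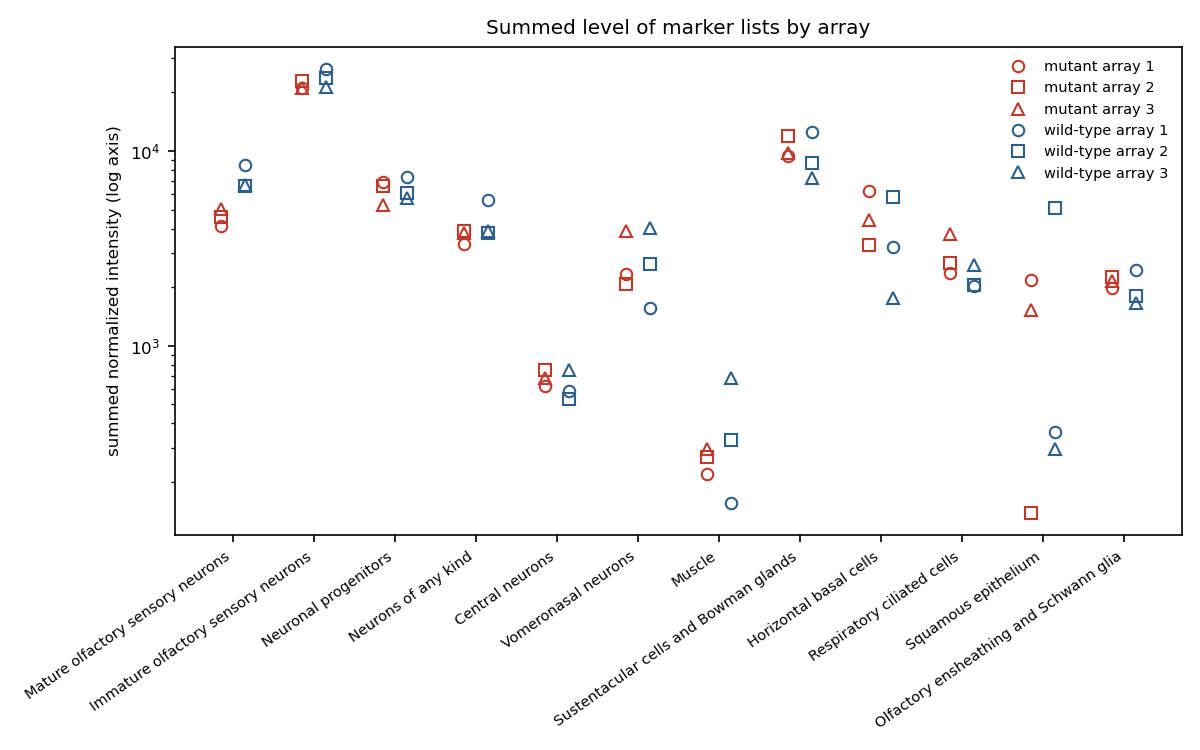
Summed normalized intensity (vertical log axis) of 12 marker lists on each array, mutant pups in red left of wildtype pups in blue. The groups part for mature sensory neurons, at 4114 to 5030 in mutant and 6646 to 8528 in wildtype pups, and overlap for the other 11 lists.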

How the data were processed

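RNA of 6 pups was measured on 1 array each. Per the labels' protocols, RNA was amplified into biotin-labelled cDNA. The sources used here do not say how the authors summarised probes, corrected background or scaled arrays. The deposited table holds linear intensity values for 45037 probe sets, 5.39% of them exactly 0. The platform annotation named 34945 probe sets with 1 gene, 932 with several and 9160 with none; only the first kind was used. Entrez numbers of 34741 were found in RefSeq (GRCm38.p6), with 0 symbols changed. No build is named, so probe sets have no coordinates.

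Arrays were quantile normalized. Values under an intensity of 12.56, the 20th percentile, were set to it before log2, so differences near it are understated. Probe sets in the lowest 40% by mean were left out as dim. The groups were compared by lmFit and trended eBayes of limma 3.58.1 (R 4.3.3), two-sided. Adjustment was by Benjamini and Hochberg's method across 20967 probe sets, with a threshold of 0.05. Single values also had an exact permutation test. The procedure was run on simulated data, drawn independently for each array, without the shared deviations of same-numbered arrays. That run therefore does not show how the fit behaves on these arrays.

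Named were all member probe sets, Klf7, up to 4 genes per list by smallest p, and up to 3 genes of highest correlation per member. Genes, lists and motifs were chosen with earlier results of these data known. Replicate numbers come from the titles. Deviations from group means correlated at 0.49, 0.22 and 0.58 between arrays numbered 1, 2 and 3. Same-numbered arrays were therefore also compared as pairs, although mutant array 1 and wildtype array 2 correlated at 0.18. The main limma fit and the permutation tests did not use the pairs. The replicate block was an alternative, as were other filters, scalings, floors, variance models, array weights, 1 probe set per gene and leaving out arrays.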

Additional observations from a re-analysis of the deposited data

How the results depend on the processing

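Under all 18 alternatives limma called 0 of the single-gene probe sets, 0 of the member probe sets and 0 of the list genes, leaving out each array in turn included. At an unadjusted p under 0.05 the count over all probe sets, 105 (76 lower), became 377 without the dim filter, 61 with array medians set equal, 189 with array weights and 177 without both arrays numbered 3, and ran from 111 to 321 when 1 array was left out. Most were lower in the mutant in each of these, except without wildtype array 1 (185, of which 40 lower) and without wildtype array 2 (321, of which 134 lower). For the members the count ran from 0 to 2. In the fit blocked on replicate number it was 281 for all and 2 for the members, Map2 1434194_at and Mapt 1455028_at, and the block changed no call at the adjusted threshold. Not normalizing moved the median difference of all probe sets to 0.06 and that of the members to -0.31.

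Of 19 member probe sets, 11 kept their sign in every alternative in which they were tested and 8 did not, in 16 values. Without both arrays numbered 3, Dclk1 1424270_at was 0.065, Dclk1 1424271_at 0.050, Map1a 1455779_at 0.056 and Map1b 1421851_at 0.25. With 1 array left out, Dclk1 1424270_at ran from -0.90 to 0.17, Dclk1 1424271_at from -0.39 to 0.10, Dclk1 1436659_at from -0.00045 to 0.42, Dcx 1418141_at from -1.29 to 0.15, Map1a 1455779_at from -0.43 to 0.25, Map1b 1421851_at from -0.98 to 0.42, Map4 1416092_a_at from -0.27 to 0.055 and Mapt 1424718_at from -1.33 to 0.055. These settings have fewer samples by construction. Signal near the floor limits the 12 dim member probe sets.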
